A study of Mus musculus with 2 samples.

Results

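Transcripts of the 5 chemokine genes *Ccl3*, *Ccl4*, *Ccl6*, *Ccl9* and *Ccl24* were counted in single CD45+ immune cells of the mouse aortic adventitia. They were taken by gene symbol from the 55386 features of the deposited count tables, and each symbol matched 1 feature in both libraries. The mice carried RankCreRosa26eYFP and were 16 weeks old, so both groups share the Cre driver and the reporter. One group was left at steady state (3 animals pooled into 1 library). The other received angiotensin II (AngII), a hormone that raises blood pressure and inflames the vessel wall, at 1.8 µg/kg/min for 10 days from an osmotic pump (2 animals pooled into 1 library). With 1 library per condition there was no replicate, so no test was made between conditions, and every interval given covers counting error only. Rank-Cre marks macrophages that stem from the yolk sac, and a cell with at least 1 UMI of the reporter is called *Yfp*+ here. A cell without such a UMI may be unmarked or may have been read too shallowly to show it.

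The members are CC chemokines, small secreted proteins that bind receptors on leukocytes and direct their migration. *Ccl3* and *Ccl4* (macrophage inflammatory proteins 1α and 1β) are transcribed within hours of an inflammatory stimulus in macrophages, neutrophils and lymphocytes. *Ccl6* and *Ccl9* are rodent chemokines of myeloid cells that act, like *Ccl3*, on *Ccr1* and are made in quantity without stimulation. *Ccl24* (eotaxin-2) binds *Ccr3*, the receptor that draws eosinophils into tissue, and is known from alternatively activated macrophages.

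Of the 5 genes, 4 lie together on chromosome 11 (GRCm38): *Ccl9* (chr11:83572919-83578636, minus strand), *Ccl6* (chr11:83587882-83593087, minus strand), *Ccl3* (chr11:83647844-83649355, minus strand) and *Ccl4* (chr11:83662584-83664683, plus strand). The cluster spanned 91765 bases, with 9245 bases between *Ccl9* and *Ccl6*, 54756 between *Ccl6* and *Ccl3*, and 13228 between *Ccl3* and *Ccl4*. *Ccl24* stands apart on chromosome 5 (chr5:135569937-135573049, minus strand). The transcripts of *Ccl6* and *Ccl9* shared no run longer than 25 bases and those of the other pairs no run longer than 13, both shorter than the sequenced read. *Ccl6* overlaps the antisense gene *E230016K23Rik*; the 3′ kit marks the strand.

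*Ccl6* and *Ccl9* had the most similar levels across cell classes (below), and the bases just before their start sites are shown for that reason. Of the 5 members, 3 had an entry in the RefSeq promoter table (GRCm38.p6). The 250 bases before each start are given 5′ to 3′ on the minus strand of chromosome 11, at chr11:83593088-83593337 for *Ccl6* and chr11:83578637-83578886 for *Ccl9*. Capitals mark runs of at least 8 letters found in both windows.
Ccl6: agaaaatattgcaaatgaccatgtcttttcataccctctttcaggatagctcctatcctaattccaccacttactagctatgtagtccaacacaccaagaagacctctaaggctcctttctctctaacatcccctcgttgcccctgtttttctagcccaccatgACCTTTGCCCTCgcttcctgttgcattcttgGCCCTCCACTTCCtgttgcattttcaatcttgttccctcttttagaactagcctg
Ccl9: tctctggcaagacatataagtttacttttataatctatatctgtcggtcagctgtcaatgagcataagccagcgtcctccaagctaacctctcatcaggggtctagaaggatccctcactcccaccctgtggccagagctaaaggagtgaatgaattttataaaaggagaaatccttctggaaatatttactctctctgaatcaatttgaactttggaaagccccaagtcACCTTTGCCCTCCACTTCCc
The longest shared run was GCCCTCCACTTCC, 13 letters, which began 55 bases before the start of *Ccl6* and 14 bases before that of *Ccl9*. Of 32849 other promoters, 42 (0.128%) shared a run at least as long with *Ccl9*. The longest runs that *Ccl3* shared with *Ccl6* and with *Ccl9* were of 8 letters, a length that 55.7% and 61.8% of the other promoters reach or pass. Of 5 motifs searched on both strands, the *Ccl6* window held AGGAAGT, an ETS motif of the PU.1 type (48 bases before the start, reverse strand, found in 7.69% of 32851 promoters). The *Ccl9* window held TGANTCA, a loose form of the AP-1 motif with any middle letter (53 bases before the start, 6.75% of promoters). The letters there were TGAATCA, and a stricter AP-1 spelling was not searched. It also held an NF-kB motif spelled GGG, 3 free letters and TTCC (35 bases before the start, reverse strand, 4.65%). TTGCNNAA (C/EBP, 9.56% of promoters) and the STAT6 motif (TTC and GAA with 4 free letters between, 5.85%) were in neither, and the *Ccl3* window held none of the 5. These matches describe letters in a window and not bound sites.

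The steady-state library held 346 barcodes and 4009678 UMIs, of which 306 cells passed the filter (median 9105 UMIs per cell). The AngII library held 4419 barcodes and 20481854 UMIs, of which 4198 cells passed (median 1092 UMIs). The depth gap is why shares of cells are given after each cell was thinned to 1000 UMIs, which 99.0% and 54.5% of the cells could supply, beside the shares at full depth. Cells were gated into classes by marker genes that did not include the members: 121 cells at steady state and 1153 on AngII were macrophages, with all 12 macrophage markers detected in both. Macrophages were divided into resident (75 and 93 cells), type-2 (22 and 120), reparative (324, AngII only) and other macrophages (24 and 616), names that mean likeness by these markers. Cells carrying markers of 2 lineages (24 and 357) and unassigned cells (10 and 1238; on AngII their median was 765.5 UMIs) were kept apart, and no barcode was shared between the libraries.

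*Ccl6* and *Ccl9* were highest in type-2 macrophages and were found in the other macrophages, monocytes and type-2 dendritic cells. At steady state *Ccl6* stood at 2919 CPM (UMIs of the gene per 1000000 UMIs of the class; 95% Poisson interval 2780 to 3064) in type-2, 2099 in resident and 608 in other macrophages. On AngII it stood at 7325 CPM (7126 to 7528) in type-2, 5910 (5698 to 6128) in resident, 2705 in reparative and 2703 in other macrophages. The order type-2, resident, then the remaining macrophages was the same in both libraries, and on AngII the reparative and other macrophages did not differ beyond their intervals. Below them on AngII came classical monocytes (1984 CPM, 1920 to 2050), type-2 dendritic cells (1378 CPM) and neutrophils (1088 CPM, 992 to 1191), each apart from its neighbours in that order.

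*Ccl9* followed the same order at its own level. At steady state it reached 1192 CPM in type-2, 714 in resident and 432 in other macrophages. On AngII it reached 2645 CPM (2526 to 2768) in type-2, 1501 in resident, 1327 in reparative and 976 in other macrophages, then 895 in classical monocytes and 559 in type-2 dendritic cells. Migratory dendritic cells, with 53.0 CPM of *Ccl6* (31.4 to 83.8) and 73.7 CPM of *Ccl9*, lay at or under the levels in B cells (167 and 88.8 CPM) of that library. *Ccl9* diverged from *Ccl6* in neutrophils, where it stood at 222 CPM, within the interval of the nonclassical monocytes next to it. In B and T cells of the steady-state library neither gene reached 10 CPM: *Ccl6* had 2 UMIs in 50 B cells and 2 in 36 T cells, and *Ccl9* had 0 in both.

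*Ccl3* and *Ccl4* had a different order, so the name macrophage chemokines fits them only in part. On AngII their highest class was the neutrophils, innate cells that enter inflamed tissue first: *Ccl3* stood at 1213 CPM (1111 to 1321) and *Ccl4* at 1282 CPM (1178 to 1393; 891 without the cell richest in it). The 187 neutrophils had all 8 neutrophil markers detected (59228 CPM summed), which follows from their gating by that list. They held 4295 CPM of the summed macrophage markers, against 34576 CPM in macrophages, 1289 in B and 1132 in T cells on AngII. The part of macrophage RNA in the neutrophil levels was not tested. Macrophages held 186 to 202 CPM of the neutrophil list. With the cells of 2 lineages kept in the class they scored higher for, neutrophils stood at 672 CPM of *Ccl3* and 820 CPM of *Ccl4*. Among macrophages on AngII, *Ccl3* stood at 322 CPM (292 to 354) in reparative, 212 (174 to 257) in resident, 116 (105 to 128) in other and 24.2 in type-2 macrophages. In the resident class 2 cells held 43 and 36 of the 105 UMIs, and 26 were left without them. After thinning to equal depth, 4 of 60 resident and 43 of 439 other macrophages held *Ccl3*. The order of resident and other macrophages was therefore not settled. The class richest in *Ccl6* and *Ccl9* was thus the macrophage class poorest in *Ccl3*.

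*Ccl4* on AngII stood at 457 CPM (399 to 520) in resident, 355 in reparative, 173 in other and 55.6 in type-2 macrophages. Classical monocytes (219 CPM), type-1 dendritic cells (244 CPM) and type-2 dendritic cells (237 CPM) did not differ from each other beyond their intervals. In classical monocytes *Ccl3* stood at 55.4 CPM. Nonclassical monocytes held 207 CPM (161 to 262) of *Ccl3* and 243 CPM (193 to 302) of *Ccl4*, and 40 migratory dendritic cells 1 UMI of each. At steady state both genes were highest in other macrophages (306 CPM of *Ccl3*, 238 to 388; 176 of *Ccl4*, 125 to 240), then resident (126 and 79.1), then type-2 macrophages (17.8 and 30.3). Several of these levels rested on 1 cell: without the richest cell, *Ccl4* in resident macrophages was 40 CPM at steady state and 241 on AngII, in reparative macrophages 224, and *Ccl3* in steady-state other macrophages 192.

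*Ccl24* was high in macrophages and low or at 0 elsewhere. At steady state it stood at 1037 CPM (967 to 1111) in resident, 545 in other and 359 (311 to 412) in type-2 macrophages, against 0 UMIs in B and T cells and 11 UMIs, all in 1 cell, in 17 nonclassical monocytes. On AngII it stood at 518 CPM (466 to 574) in type-2, 208 (170 to 252) in resident, 168 in reparative and 113 in other macrophages, and at 28.8 CPM in classical monocytes and 13.9 in neutrophils. In type-2 macrophages on AngII 1 cell held 196 of the 363 UMIs, and without it the level was 243 CPM, within the upper limit of resident macrophages. Resident and reparative macrophages did not differ beyond their intervals.

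**Figure D1:**
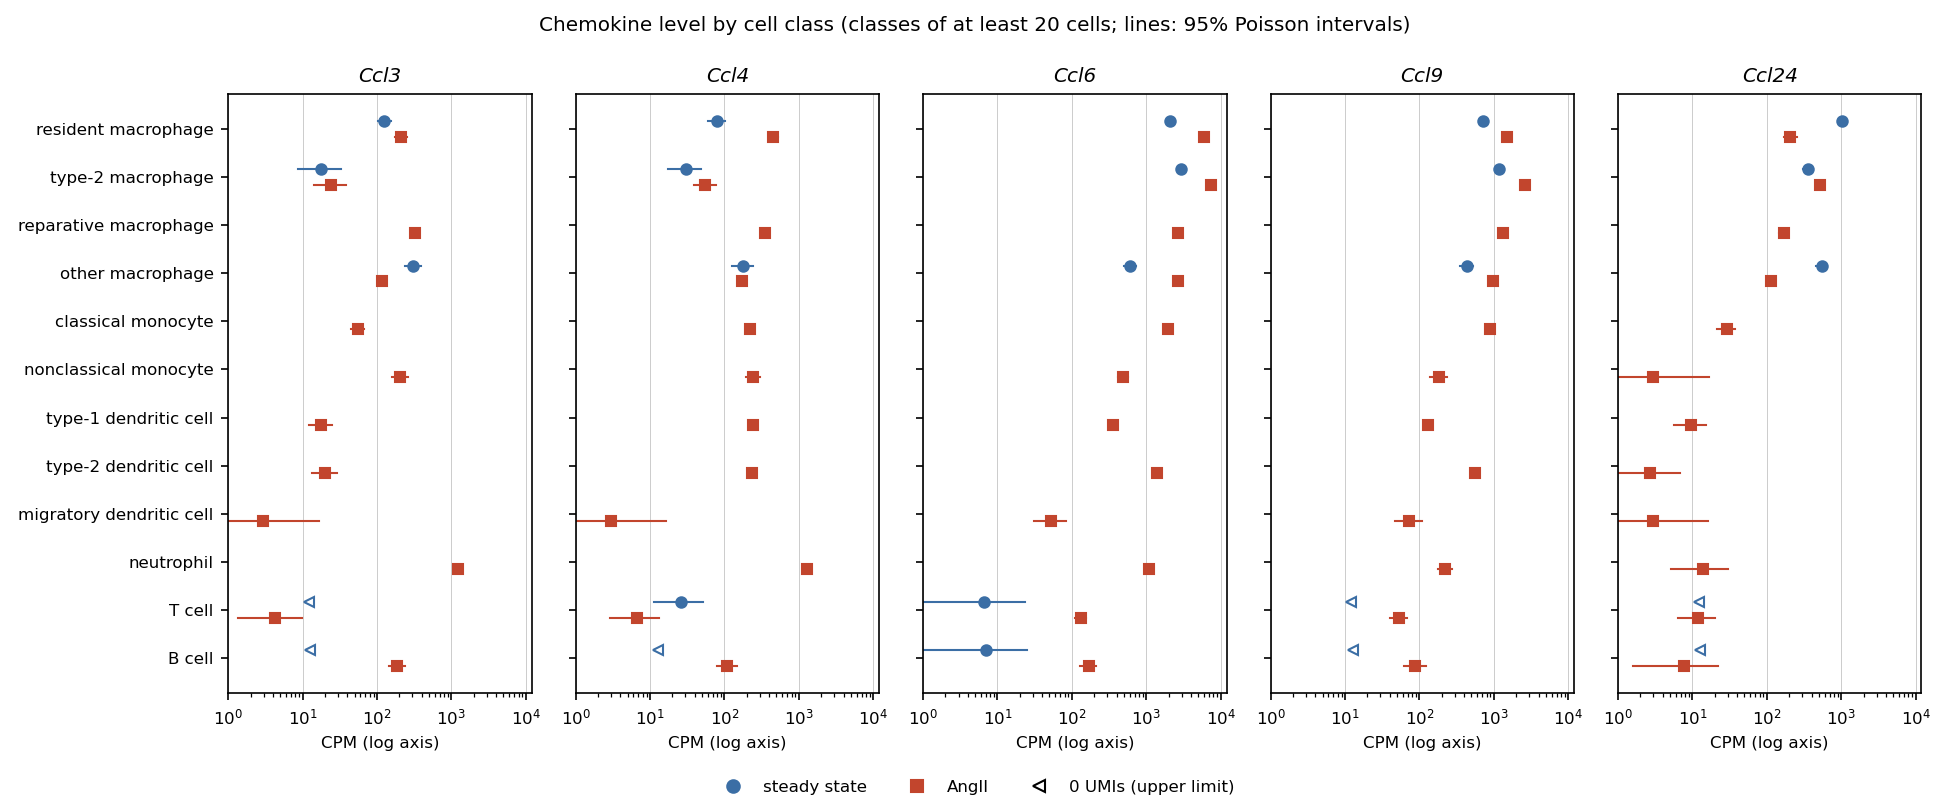
Level of each member by cell class in the steady-state (circles) and AngII (squares) libraries, in CPM on a log axis, with lines for 95% Poisson intervals and open triangles at the upper limit where no UMI was found. Type-2 macrophages lead for *Ccl6* (7325 CPM on AngII) and *Ccl9* (2645 CPM), neutrophils for *Ccl3* (1213 CPM) and *Ccl4* (1282 CPM), and steady-state resident macrophages for *Ccl24* (1037 CPM).

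At equal depth the members differed in the share of macrophages that held them, from 4.20% for *Ccl4* to 69.7% for *Ccl6* at steady state. A *Ccl6* UMI was found in 69.7% of 119 steady-state macrophages thinned to 1000 UMIs and in 84.2% of 720 AngII macrophages (90.1% and 88.4% at full depth). For *Ccl9* the shares were 47.9% and 63.5% (86.0% and 72.6% at full depth). *Ccl4* was found in 4.20% and 14.3% (18.2% and 21.1% at full depth), and *Ccl3* in 6.72% (2.95% to 12.8%, exact binomial) and 9.44% (7.41% to 11.8%), against 27.3% and 17.9% at full depth. The full-depth order of the libraries for *Ccl3* was opposite to that at equal depth, and the intervals at equal depth overlap. *Ccl24* was found in 44.5% (35.4% to 53.9%) at steady state and 8.89% (6.91% to 11.2%) on AngII, with intervals far apart (81.8% and 14.8% at full depth).

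The same shares in lymphocytes are given for comparison. Whether UMIs there were free RNA, came from cells caught together or were made by the lymphocytes was not tested. At steady state 0 of 49 B cells (median 5582 UMIs at full depth) and 0 of 36 T cells (median 8186) had a *Ccl3*, *Ccl6*, *Ccl9* or *Ccl24* UMI at 1000 UMIs, which for 36 cells allows a share of up to 9.74% by the exact interval. On AngII, B cells (median 1527 UMIs) and T cells (median 1043 UMIs) had *Ccl6* in 9.23% and 17.5%, *Ccl9* in 9.23% and 9.74%, *Ccl24* in 0 of 65 and 1.30%, and *Ccl3* in 1.54% and 0.649%. The macrophage shares of *Ccl6* and *Ccl9* in the same library lay above these values. By level, *Ccl6*, *Ccl9* and *Ccl24* in AngII B cells were 4.76%, 6.85% and 4.20% of their macrophage levels, and in T cells 3.73%, 4.05% and 6.54%, beside 3.73% and 3.27% for the summed macrophage markers. *Ccl9* in B cells and *Ccl24* in T cells (14 UMIs) thus stood above the share of the macrophage markers, and *Ccl6* near it. *Ccl3* and *Ccl4* went another way in B cells, where 1 cell with 8 B-cell and 5 macrophage markers held 72 of 74 *Ccl3* UMIs and 41 of 43 *Ccl4* UMIs. The same cell held 9 of the 35 *Ccl9* UMIs in B cells, so the *Ccl9* share there rests in part on it. In T cells *Ccl3* was 2.65% and *Ccl4* 3.03% of the macrophage level.

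**Figure D2:**
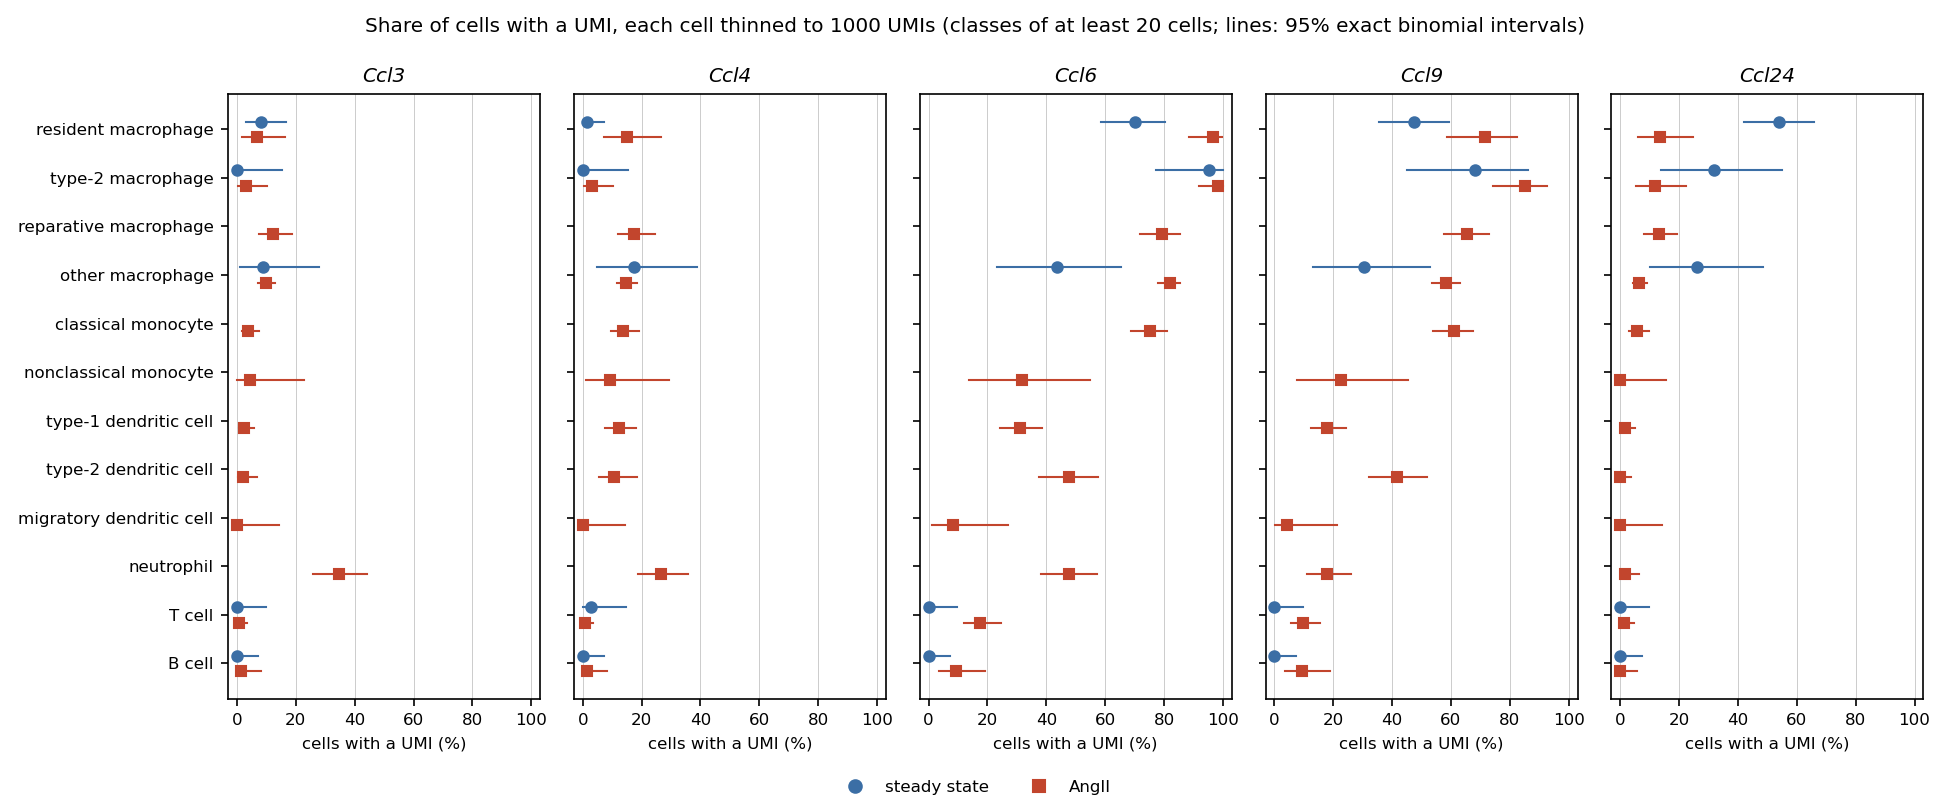
Share of cells (%) with at least 1 UMI of each member after thinning every cell to 1000 UMIs, by class of at least 20 cells, with 95% exact binomial intervals. *Ccl24* goes from 54.1% of steady-state to 13.3% of AngII resident macrophages. Over all AngII macrophages, a group not drawn, *Ccl6* is found in 84.2% and *Ccl9* in 63.5%.

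The comparison of AngII with steady state asks how the vessel wall's macrophages differ in inflammation. Over all macrophages, *Ccl24* was lower on AngII, at 181 CPM (171 to 193) against 725 CPM (683 to 768), a ratio of 0.25 (0.23 to 0.27). *Ccl4* was higher, at 224 CPM (212 to 236) against 75.3 CPM (62 to 90), a ratio of 2.97 (2.46 to 3.62). The *Ccl4* ratio leaves out 1 unassigned steady-state cell with 9 of 12 macrophage markers detected. That cell held 214 *Ccl4* UMIs, against 118 in the 121 steady-state macrophages together, so the ratio depends on its class. *Ccl6* was 1.61 times as high (1.56 to 1.67; 3520 against 2181 CPM) and *Ccl9* 1.53 times (1.45 to 1.63; 1297 against 845 CPM). For *Ccl3* the ratio was 1.41 (1.20 to 1.67; 160 against 113 CPM), but 1.06 (0.62 to 1.93) after thinning, and it fell below 1 in macrophages defined by *Adgre1* and *Itgam* (0.87) and with the macrophage classes at equal weight (0.78), so its direction was not settled. Of the 5 members 1 was at least 2-fold higher and 1 at least 2-fold lower, against 5.46% and 4.13% of the 7185 genes with at least 100 UMIs. The members' median log2 ratio was 0.62, that of all genes tested 0.03. With the macrophage classes at equal weight *Ccl24* was at 0.43 and *Ccl6* at 2.83 times the steady-state level. *Ccl4* passed below 2-fold in *Adgre1* and *Itgam* macrophages (1.31) and after subtraction of the B-cell level (1.52). That B-cell level rested on 1 AngII cell, which held 41 of the 43 *Ccl4* UMIs.

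The classes differed in composition between libraries, so each was compared by itself. In resident macrophages *Ccl24* stood at 208 against 1037 CPM on AngII and at steady state, a ratio of 0.20 (0.16 to 0.25), and at equal depth it was found in 13.3% of 60 against 54.1% of 74 cells. *Ccl6* was 2.82 times (2.65 to 2.99), *Ccl9* 2.10 times (1.88 to 2.35) and *Ccl4* 5.77 times as high (4.34 to 7.78), the last with 110 and 66 of its 226 AngII UMIs in 2 cells. *Ccl3* had a ratio of 1.68 (1.26 to 2.23), but 1.01 (0.37 to 2.68) after thinning and 0.71 (0.43 to 1.14) without the 2 richest cells of each group. In this class 3 members were at least 2-fold higher and 1 at least 2-fold lower, against 3.74% and 3.14% of 2166 genes, and the members' median log2 ratio was 1.07 against 0.07 for all genes. Resident macrophages therefore had more *Ccl6* and *Ccl9* and less *Ccl24* per UMI on AngII, both beyond counting error.

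Type-2 macrophages shared the higher *Ccl6* (2.51 times, 2.37 to 2.65) and *Ccl9* (2.22 times, 2.03 to 2.43), while for *Ccl24* no direction could be given. It stood at 518 against 359 CPM (ratio 1.44, 1.21 to 1.72), and without the richest cell of each library at 243 against 244 CPM, while at equal depth it was found in 11.9% against 31.8% of cells. Of the 3 members with enough UMIs, 2 were at least 2-fold higher and 0 lower, against 3.19% and 3.04% of 1910 genes. In other macrophages *Ccl6* was 4.45 times (3.75 to 5.31) and *Ccl9* 2.26 times (1.84 to 2.80) as high, whereas *Ccl24* (0.21, 0.17 to 0.26) and *Ccl3* (0.38, 0.29 to 0.50) were lower and *Ccl4* had a ratio of 0.98 (0.71 to 1.40). In that class, 2 members were higher and 2 lower, against 12.2% and 4.99% of 4905 genes, and 1 of the 24 steady-state cells held 72 of 135 *Ccl6* and 46 of 96 *Ccl9* UMIs. Without the richest cells the ratios were 8.57 for *Ccl6*, 3.86 for *Ccl9* and 0.57 (0.41 to 0.80) for *Ccl3*. Without the 2 richest cells of each group that of *Ccl3* was 0.73 (0.50 to 1.11), an interval that holds 1. Reparative macrophages were present on AngII only and gave no ratio. The difference in *Ccl24* and *Ccl3* between classes was not tested.

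**Figure D3:**
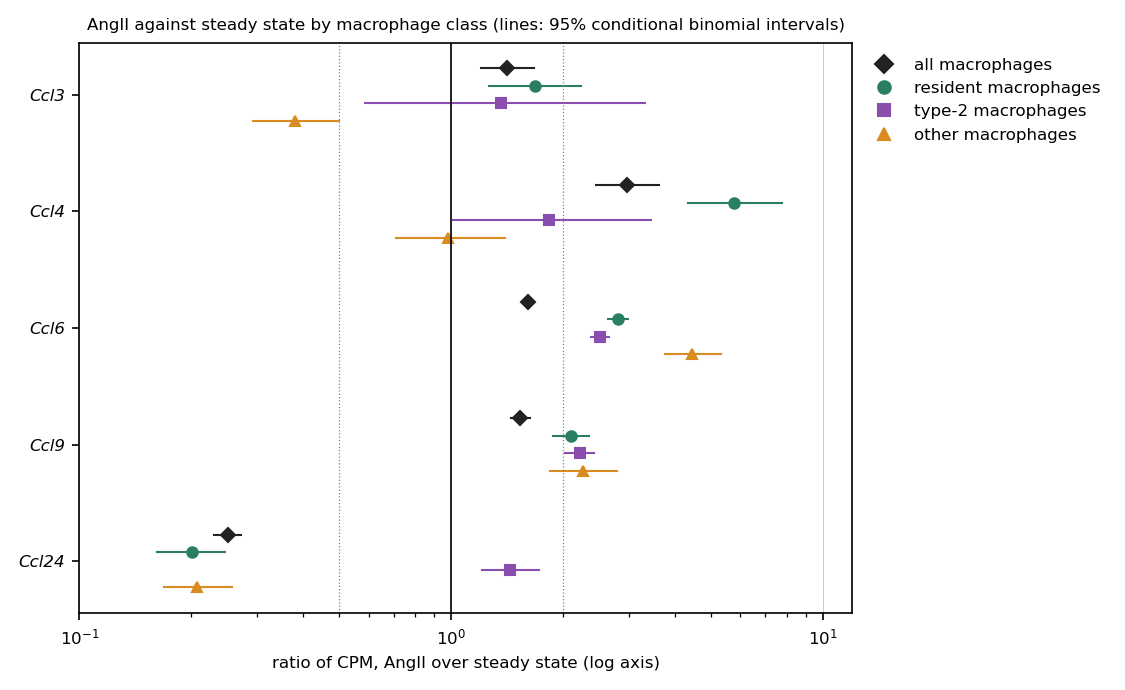
Ratio of AngII to steady-state levels (log axis) of each member in all macrophages and in each class found in both libraries, with lines for exact 95% counting intervals. *Ccl6* and *Ccl9* lie above 1 in every class drawn, from 1.53 for *Ccl9* in all macrophages to 4.45 for *Ccl6* in other macrophages, and *Ccl24* lies below 1 except in type-2 macrophages (1.44).

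Genes that respond to tissue handling moved between the same libraries. A list of 11 immediate early and heat shock genes had 0 members at least 2-fold higher and 7 at least 2-fold lower on AngII in macrophages (median log2 ratio -1.08; *Jun* 0.27, *Atf3* 0.26 and *Hspa1a* 0.24 times the steady-state level). Its summed level was 16795 CPM in steady-state and 8965 CPM in AngII resident macrophages, 12944 and 7337 in type-2, and 21481 and 8870 in other macrophages. All 11 genes were detected. *Ccl3* and *Ccl4* are induced by many of the same stimuli, and at steady state the 13 thinned macrophages with a *Ccl3* or *Ccl4* UMI held 22385 CPM of this list against 15877 CPM in the 106 without, 10 of the 11 genes being higher. On AngII the values were 9104 against 8708 CPM (7 of 11 genes higher), and in neutrophils 17154 against 17689 CPM. The part of tissue handling in the levels of *Ccl3* and *Ccl4* was not tested.

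*Yfp*+ macrophages were 88 of 121 (72.7%) at steady state and 226 of 1153 (19.6%) on AngII, and in the lymphocytes 0 of 50 and 2 of 113 B cells and 2 of 36 and 5 of 286 T cells had a reporter UMI. *Yfp*+ cells were deeper than *Yfp*- cells, with medians of 11251 against 7076 UMIs at steady state and 7550.5 against 1125 on AngII. By class they were 59 of 75 resident macrophages at steady state, and on AngII 34 of 93 resident, 17 of 120 type-2, 29 of 324 reparative and 146 of 616 other macrophages. Depth and class thus moved with the reporter, and their part in the ratios that follow was not separated beyond thinning and the values within classes.

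At steady state the levels of the members were alike or moderately different in *Yfp*+ and *Yfp*- macrophages. *Ccl6* stood at 2103 against 2491 CPM (ratio 0.84, 0.78 to 0.92; 0.96 after thinning, 0.72 to 1.30), and *Ccl9* at 832 against 899 CPM (0.93, 0.81 to 1.06). *Ccl24* stood at 751 against 620 CPM (1.21, 1.04 to 1.42; 1.16 after thinning, 0.73 to 1.92) and *Ccl3* at 106 against 142 CPM (0.74, 0.52 to 1.06). The ratio of *Ccl4* was 1.88 (1.07 to 3.55), on 104 against 14 UMIs, but 3.74 without the cell filter and 0.31 when *Yfp* was called after thinning each cell to 2000 UMIs, so its direction was not settled. At this depth none of the thinned ratios had an interval that left out 1. Past 2-fold there were 0 of 5 members in either direction, against 2.7% of 2522 genes higher and 1.11% lower in *Yfp*+ cells. Within resident macrophages *Ccl4* had 62 UMIs in 59 *Yfp*+ cells, 31 of them in 1 cell, and 0 in 16 *Yfp*- cells. These counts allow a ratio down to 2.32, or to 1.07 without that cell. Without the 2 richest cells 18 UMIs were left in *Yfp*+ cells and the lower limit was 0.57. After thinning, 1 of 44 resident cells with at least 2 reporter UMIs held *Ccl4*. None of the 15 with 1 reporter UMI and none of the 15 without held it, so the direction was not settled. In resident macrophages *Ccl6* (1.18, 1.01 to 1.39) and *Ccl9* (1.56, 1.15 to 2.14) were above 1 at full depth but 0.87 and 1.07 after thinning.

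Without the cell of each group richest in the gene the ratio of *Ccl3* was 1.43 (0.86 to 2.51), on the other side of 1, and that of *Ccl4* 2.04.

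On AngII *Ccl4* had the highest *Yfp*+ to *Yfp*- ratio of the members over all macrophages, at 298 against 169 CPM (1.77, 1.58 to 1.97; 1.64 after thinning, 1.18 to 2.26). Yet at equal depth a similar share of cells held a *Ccl4* UMI (14.0% of *Yfp*+ and 14.4% of *Yfp*- cells), and without the richest cell of each group (184 of 750 and 70 of 573 UMIs) the ratio was 1.54 (1.36 to 1.74). *Ccl3* had a ratio of 1.16 (1.02 to 1.33), *Ccl6* of 1.05 (1.03 to 1.08), *Ccl9* of 0.98 (0.94 to 1.03) and *Ccl24* of 1.01 (0.89 to 1.14). Without the richest cells those of *Ccl3* and *Ccl24* were 0.97 (0.84 to 1.12) and 1.36 (1.18 to 1.56), so 1 cell per group set on which side of 1 *Ccl3* lay. Of the 5 members 0 passed 2-fold in either direction, against 0.544% of 6431 genes higher and 0.746% lower. Split by reporter UMIs after thinning (0, 1, or at least 2; 520, 79 and 121 cells), *Ccl4* stood at 198, 165 and 430 CPM and *Ccl3* at 129, 101 and 231 CPM, while *Ccl6* stood at 3688, 3949 and 3967 CPM and *Ccl9* at 1315, 1203 and 1223 CPM. *Ccl24* stood at 181, 190 and 165 CPM.

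Within the AngII classes, resident macrophages had high *Yfp*+ to *Yfp*- ratios for *Ccl3* (300 against 46.6 CPM, ratio 6.43, 3.14 to 15.3) and *Ccl4* (637 against 117 CPM, 5.46, 3.45 to 9.13). Of the 105 *Ccl3* UMIs there, 43 and 36 were in 2 cells, and at equal depth 10.0% of *Yfp*+ and 3.33% of *Yfp*- cells, 30 of each, held one. Without the 2 richest cells of each group 18 against 2 UMIs of *Ccl3* and 30 against 6 of *Ccl4* were left, with ratios of 4.24 (1.01 to 37.6) and 2.37 (0.97 to 6.96), so 2 cells carried most of these levels. *Ccl6* (0.92, 0.85 to 0.99) and *Ccl9* (0.75, 0.65 to 0.87) were lower in *Yfp*+ resident macrophages, the latter 0.92 (0.60 to 1.41) after thinning. In reparative macrophages all 5 ratios were above 1, from 1.31 for *Ccl9* to 2.40 for *Ccl4* (1.98 to 2.89), but 1 of the 29 *Yfp*+ cells held 113 of 144 *Ccl3* and 184 of 194 *Ccl4* UMIs. Without the richest cells *Ccl3* was at 0.51 (0.34 to 0.75) and *Ccl4* at 0.19 (0.09 to 0.35) times the *Yfp*- level, the opposite direction, while *Ccl6* stayed above 1 (1.47, 1.35 to 1.59). In type-2 macrophages *Ccl3* had 1 *Yfp*+ against 16 *Yfp*- UMIs (ratio 0.09, 0.002 to 0.57). *Ccl24* in other macrophages was found in 10.3% of *Yfp*+ against 4.62% of *Yfp*- cells at equal depth, with a thinned ratio of 2.23 (1.21 to 4.10), whereas in type-2 macrophages its full-depth ratio was 0.55 (0.43 to 0.69), and 1.63 (1.14 to 2.32) without the richest cells, of which 1 held 196 of 262 *Yfp*- UMIs.

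**Figure D4:**
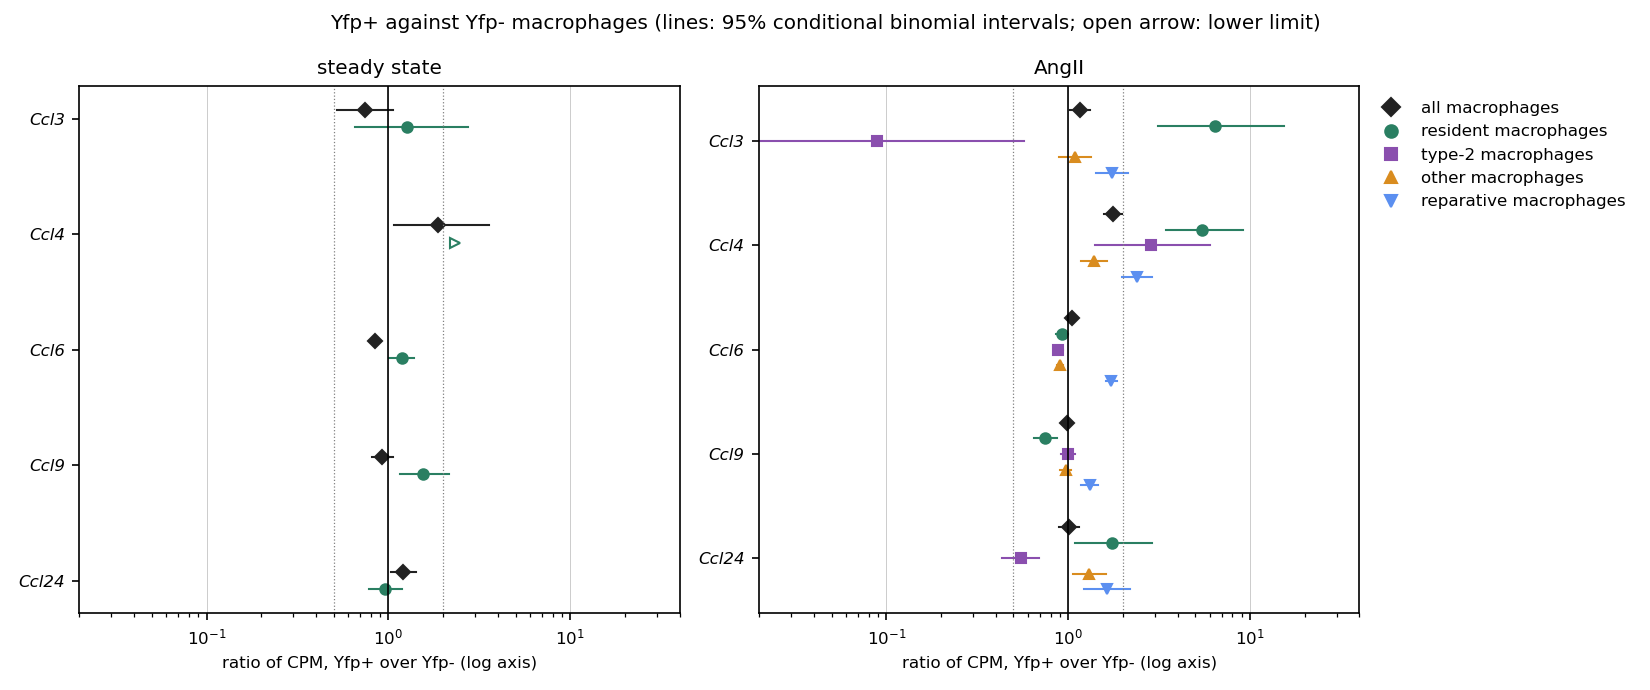
Ratio of *Yfp*+ to *Yfp*- levels (log axis) of each member in all macrophages and macrophage classes of each library, with exact 95% counting intervals that end at the axis edge where wider and an open arrow at the lower limit where the *Yfp*- cells had 0 UMIs. Over all macrophages the ratios run from 0.74 (*Ccl3*, steady state) to 1.88 (*Ccl4*, steady state), and in AngII resident macrophages *Ccl3* and *Ccl4* reach 6.43 and 5.46.

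The members differed in how their transcripts were spread over cells. In AngII macrophages 50% of the UMIs were held by 71 cells for *Ccl6* and 73 for *Ccl9*, but by 14 for *Ccl3*, 9 for *Ccl4* and 8 for *Ccl24*, of 1153. The richest 10% of cells held 63.7% of *Ccl6* and 62.6% of *Ccl9* UMIs, against 90.4% for *Ccl3*, 90.4% for *Ccl4* and 94.9% for *Ccl24*. At steady state *Ccl24* was spread like *Ccl6* and *Ccl9* (44.4%, 44.0% and 43.7% in the richest 10% of cells), while *Ccl3* (76.8%) and *Ccl4* (89.0%) were held by few cells. *Ccl24* UMIs were thus held by fewer of the macrophages on AngII, where its level was also lower. A lower level by itself raises the share in the richest cells, and cell depth enters these shares, since deep cells hold more UMIs of every gene.

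On AngII, cells with *Ccl3* held *Ccl4* in a higher share than those without, but with intervals that overlap. Macrophages with *Ccl6* more often held *Ccl9*, there beyond the intervals. At 1000 UMIs, 17 of 68 AngII macrophages with *Ccl3* (25.0%, 15.3% to 37.0%) also had *Ccl4*, against 13.2% (10.7% to 16.0%) of those without, while in reparative macrophages alone the shares were 21.1% and 17.0%. At steady state 0 of 8 macrophages with *Ccl3* had *Ccl4*, which allows a share of up to 36.9%, against 4.50% of those without. In neutrophils 17 of 39 cells with *Ccl3* (43.6%, 27.8% to 60.4%) had *Ccl4*, against 17.6% (9.70% to 28.2%) of those without. *Ccl9* was found in 69.6% of AngII macrophages with *Ccl6* and 30.7% of those without, and at steady state in 55.4% and 30.6%. *Ccl6* in turn was found in 70.6% of AngII macrophages with *Ccl3* and in 85.6% of those without, and *Ccl9* in 61.8% and 63.7%. At steady state 81.1% (68.0% to 90.6%) of macrophages with *Ccl24* and 60.6% (47.8% to 72.4%) of those without had *Ccl6*, and these intervals overlap. Some single cells with very many copies held both *Ccl3* and *Ccl4*: 1 AngII reparative macrophage had 113 and 184 UMIs, 1 AngII resident macrophage 43 and 110, and 1 AngII neutrophil 31 and 174. By contrast, 1 steady-state cell of 2 lineages had 99 *Ccl3* UMIs and 1 *Ccl4* UMI.

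**Figure D5:**
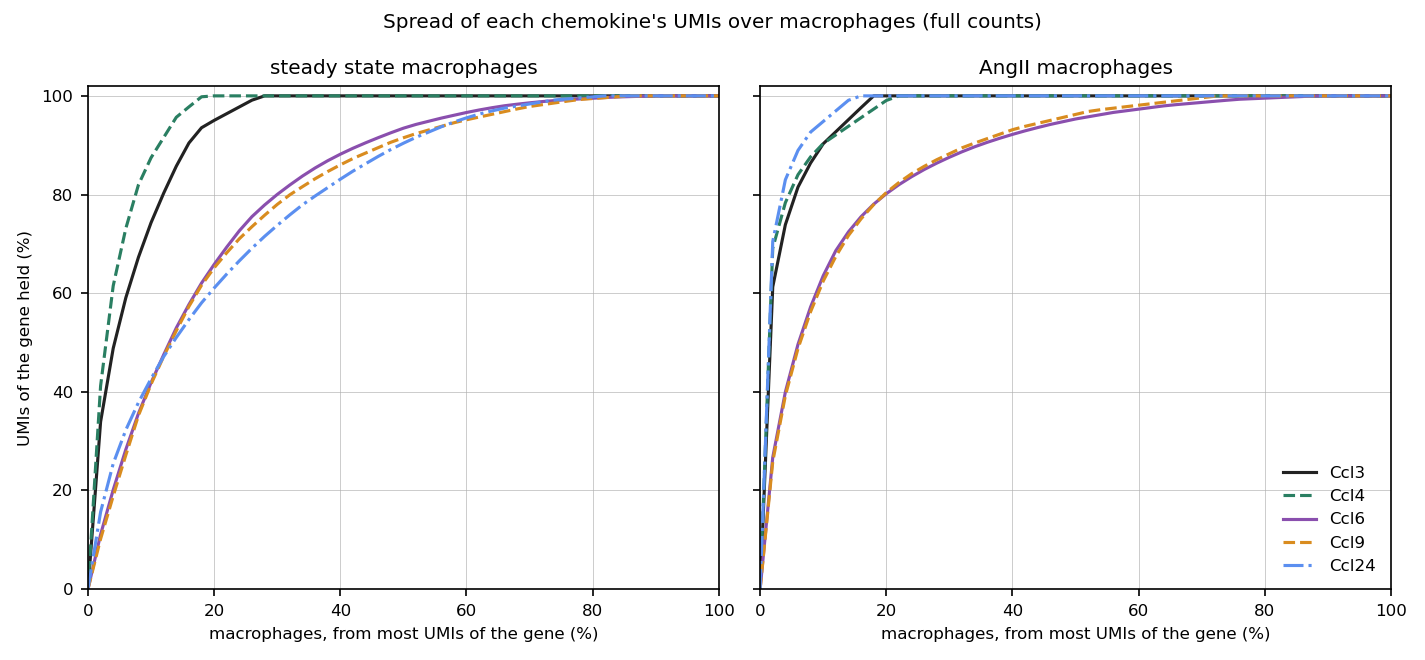
Cumulative share of each member's UMIs (%) against the share of macrophages (%), cells ordered from the richest, for each library. On AngII the curves of *Ccl3*, *Ccl4* and *Ccl24* pass 90% within the richest 10% of cells, and those of *Ccl6* (63.7%) and *Ccl9* (62.6%) lie below them.

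Transcripts of receptors of the members were found in macrophages and in other cells of the same libraries. *Ccr1*, the receptor of *Ccl3*, *Ccl6* and *Ccl9*, was highest on AngII in neutrophils (1039 CPM, in 51.3% of cells at equal depth) and stood at 369 CPM in classical monocytes, 294 in macrophages, 17.8 in B and 16.1 in T cells. In macrophages it was 2.28 times as high on AngII as at steady state (1.97 to 2.65; 129 CPM). *Ccr3*, the receptor of *Ccl24*, had 0 UMIs in all filtered steady-state cells, and on AngII 11 UMIs in 1153 macrophages. Another 11 were in 2 of 5 cells gated by eosinophil markers, 8 of them in 1 cell, but these 5 cells held 25406 CPM of the neutrophil list against 4697 CPM of the eosinophil list, with *Epx* at 0, so they are not given a name. The decoy receptor *Ackr2* had 0 UMIs in both libraries.

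Other ligands of these receptors and related pathways went in both directions in macrophages on AngII. Of 4 other ligands 3 were tested: *Ccl8* was higher (111 to 924 CPM, 8.31 times), *Ccl5* lower (62.6 to 22.3 CPM, 0.36 times) and *Ccl7* had a ratio of 0.85. Of 8 NF-kB feedback and cytokine genes, the transcription pathway behind *Ccl3* and *Ccl4*, 1 was at least 2-fold higher (*Il1b*, 7.19 times) and 1 lower (*Nfkbiz*, 0.40 times), with a median log2 ratio of -0.68. In thinned AngII macrophages with a *Ccl3* or *Ccl4* UMI that list summed to 4455 CPM against 2687 CPM in those with neither (5 of 8 genes higher), and at steady state to 5231 against 3198 CPM (7 of 8). In AngII resident macrophages (2273 against 1898 CPM) the intervals overlapped, and in AngII other macrophages (3619 against 2327 CPM) they did not. At steady state they overlapped in resident (4429, 3009 to 6286, against 2687, 2308 to 3109 CPM) and in other macrophages (6167 against 5412 CPM). In AngII neutrophils the list summed to 24673 (23341 to 26061) against 22984 CPM (21796 to 24219), also overlapping. Over all neutrophils, the class highest in both chemokines, it summed to 25039 CPM at full depth, against 3015 CPM in AngII macrophages. Of 8 genes listed for interleukin-4 and STAT6, the pathway known for *Ccl24*, 3 were at least 2-fold higher and 4 lower, with a median of -0.88. The higher genes were *Arg1* (0 and 2537 UMIs), *Chil3* (12.8 times) and *Il4ra* (4.35 times). The lower genes were *Retnla* (0.13), *Cd163* (0.29), *Mgl2* (0.30) and *Clec10a* (0.48 times). Some of these genes also served as markers of the macrophage classes, *Cd163* for the resident class among them. Whether each responds to interleukin-4 in these cells was not tested.

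Over the 17 class-by-library groups of at least 20 cells, the Pearson correlation of log2(CPM + 10) was 0.98 between *Ccl6* and *Ccl9* and 0.83 between *Ccl3* and *Ccl4*. *Ccl24* had 0.71 with *Ccl6*, 0.74 with *Ccl9*, 0.36 with *Ccl3* and 0.18 with *Ccl4*. Among 8450 genes, the most alike were *Clec5a* (0.91), *Zmiz1* (0.90) and *Irak2* (0.87) for *Ccl3*, and *Fuca2* (0.87), *Nlrp3* (0.86) and *Rab2a* (0.86) for *Ccl4*. Next to each other, *Ccl6* and *Ccl9* were both most like *Slc39a1* (0.94 and 0.97). *Ccl24* was most like *Ccl2* (0.94), *Pf4* (0.94) and *Ccl7* (0.93). The groups share 2 libraries and their depths, so these values describe and test nothing.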

How the data were processed

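Single CD45+ cells were captured with the 10x 3′ v3.1 kit. Per the labels and the methods, the authors demultiplexed reads, aligned them with Cell Ranger 3.1.0 to GRCm38.p6 (GENCODE M24 plus eYFP) and deposited raw UMI counts per gene and called barcode, without normalization; the submitters' processing notes also name bcl2fastq. Barcodes were retained with 300 to 6500 genes and a mitochondrial share of UMIs up to 5%. The members, lists and comparisons were chosen with earlier results of these data known, and 1 gene of the receptor list is not reported here.

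Cells were seeded by marker scores (mean log2 ratio above 0 with 100 CPM added, at least 3 markers detected, or 2 for lists of up to 6) and assigned by a multinomial likelihood over the markers alone (posterior at least 0.9, at least 2 own markers). This scoring was settled after the cells had been seen. Of 22 gating lists 16 had at least 5 seed cells. Cells passing 2 lineages were left out, and no doublet caller was run. No annotation of the cells by the authors was used, and the rebuilt classes may be why a value departs from the study's.

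Intervals are 95% Poisson (CPM), Clopper-Pearson (shares) and exact conditional binomial (ratios), and cover counting error only; with 0 UMIs the limit is 3 counts where given. Ratios are called at 2-fold among genes with at least 100 UMIs in both groups together. Cells were thinned to 1000 UMIs (seed 1; 500 and 2000 as alternatives). Named genes are the members, the genes of the fixed lists, and the 3 genes most correlated with each member among those with at least 200 UMIs; the single cells described were chosen after their values were seen. Scripts used pandas 2.3.3, SciPy 1.17.1, Matplotlib 3.10.9 and NumPy 2.4.6 under Python 3.11.15 and were tested on simulated data.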

Additional observations from a re-analysis of the deposited data

Results flagged for a closer look

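Several ratios of the members lay on opposite sides of 1 in 2 groups; none of these differences was tested. *Ccl3* on AngII over steady state was 1.68 in resident and 0.38 (0.379) in other macrophages. Without the 2 richest cells of each group these ratios were 0.71 (0.43 to 1.14) and 0.73 (0.50 to 1.11), on the same side of 1. *Ccl24* was 0.20 (0.201) in resident and 0.21 (0.208) in other macrophages but 1.44 in type-2 macrophages, where 1 AngII cell held 196 of 363 UMIs. The *Yfp*+ over *Yfp*- ratio of *Ccl6* was 0.84 (0.844) at steady state and 1.05 on AngII in all macrophages, and 1.18 and 0.92 (0.920) in resident macrophages. That of *Ccl9* in resident macrophages was 1.56 at steady state and 0.75 (0.749) on AngII, and 1.07 and 0.92 after thinning.

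The 10 unassigned steady-state cells, outside every comparison, held 1014 CPM of *Ccl3* and 2691 CPM of *Ccl4*, above the levels in macrophages (113 and 75.3 CPM). Of their UMIs, 74 *Ccl3* (88.1%) and 214 *Ccl4* (96.0%) were in 1 cell of 10682 UMIs, which had 9 of 12 macrophage markers detected, 0 neutrophil, 0 NK-cell and 0 T-cell markers and 1 reporter UMI.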

How the results depend on the processing

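No paired analysis was possible because each condition was 1 pooled library and no result comes from a test. Leaving out a replicate was not possible for the same reason. Over all macrophages the ratios past 2-fold were those of *Ccl4* and *Ccl24* on AngII over steady state, and neither changed direction under any alternative run. Ratios within 2-fold did cross 1: at steady state the *Yfp*+ over *Yfp*- ratio ran from 0.308 to 3.74 for *Ccl4* and from 0.417 to 2.01 for *Ccl3*. Within classes, without the richest cell of each group (added after seeing the data), the *Yfp*+ over *Yfp*- ratio of *Ccl4* in AngII reparative macrophages went from 2.40 to 0.19 (0.186), and to 0.21 (0.211) without the 2 richest, since 1 cell held 184 of 194 UMIs. The AngII over steady state ratios ranged from 0.783 to 1.48 for *Ccl3*, 1.31 to 4.42 for *Ccl4*, 1.48 to 2.83 for *Ccl6*, 1.43 to 2.19 for *Ccl9* and 0.169 to 0.432 for *Ccl24*. Thinned to 1000 UMIs they were 1.06, 3.97, 1.84, 1.68 and 0.207 in that order, and with 3 macrophage classes at equal weight (an alternative chosen after seeing the data) 0.783, 2.40, 2.83, 2.19 and 0.432. In macrophages defined by *Adgre1* and *Itgam* they were 0.872 for *Ccl3*, 1.31 for *Ccl4*, 1.48 for *Ccl6* and 0.177 for *Ccl24*. Without the cell filter *Ccl4* was 2.26, *Ccl6* 1.74 and *Ccl9* 1.66. As means over cells *Ccl6* was 1.99, *Ccl9* 1.83 and *Ccl24* 0.169, and *Ccl24* without the richest cells was 0.220. With the B-cell level subtracted *Ccl4* was 1.52, *Ccl6* 1.54 and *Ccl9* 1.43, but 1 cell held 41 of the 43 *Ccl4* UMIs of AngII B cells. *Ccl3* gave no value because its AngII B-cell level exceeded that of macrophages through the same cell. With the T-cell level subtracted (added after seeing the data) *Ccl4* was 4.42. Over all genes 392 were at least 2-fold higher and 297 lower, against 1318 and 827 after thinning and 465 lower by means over cells.

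For *Yfp*+ against *Yfp*- macrophages 0 members passed 2-fold. At steady state 1 did under 6 alternatives: *Ccl4*, higher without the cell filter (3.74), without the richest cells (2.04) and at posterior 0.99 (3.23) but lower with the reporter thinned to 2000 UMIs (0.308), and *Ccl3*, higher by *Adgre1* and *Itgam* (2.01) but lower at equal class weight (0.417). On AngII 1 did by *Adgre1* and *Itgam* (*Ccl24*, 2.51, against 0.826 at equal class weight) and 2 at equal class weight (*Ccl3*, 2.16, and *Ccl4*, 3.16). All genes past 2-fold at steady state were 68 higher and 28 lower, against 468 and 246 after thinning, 204 and 109 by *Adgre1* and *Itgam*, 16 higher with at least 2 reporter UMIs, and 9 higher and 45 lower with the reporter thinned. On AngII they were 35 and 48, against 277 and 499 after thinning, 105 and 115 by *Adgre1* and *Itgam*, 84 and 135 by means over cells, and 104 lower with the reporter thinned.

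Shares at 500 UMIs were 47.9% for *Ccl6* and 25.6% for *Ccl9* at steady state, and 6.07%, 8.24%, 70.0%, 44.5% and 4.16% for *Ccl3*, *Ccl4*, *Ccl6*, *Ccl9* and *Ccl24* on AngII. At 2000 UMIs they were 69.0% for *Ccl9* and 58.6% for *Ccl24* at steady state, and 14.3%, 88.9%, 76.5% and 14.0% for *Ccl3*, *Ccl6*, *Ccl9* and *Ccl24* on AngII. Keeping cells of 2 lineages gave a *Ccl6* level of 3095 CPM in steady-state type-2 macrophages, and on AngII 672 CPM of *Ccl3* and 820 CPM of *Ccl4* in neutrophils and 6858 CPM of *Ccl6* and 436 CPM of *Ccl24* in type-2 macrophages. Without the richest cell *Ccl3* in steady-state other macrophages was 192 CPM, *Ccl24* in steady-state resident macrophages 945 CPM, *Ccl4* in AngII neutrophils 891 CPM and *Ccl24* in AngII type-2 macrophages 243 CPM. Of the AngII cells 433 of 1153 macrophages had under 1000 UMIs and are missing from the shares at equal depth.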

Other observations

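Cells set apart as carrying markers of 2 lineages on AngII held 213 CPM of *Ccl3*, and unassigned AngII cells held 182 CPM. Of the steady-state cells of 2 lineages, 1 cell of 25883 UMIs held 99 *Ccl3* UMIs, 83.9% of that group's, and 1 *Ccl4* UMI. It had 12 macrophage, 8 B-cell and 6 neutrophil markers detected. The 6 classical monocytes of the steady-state library held 74 *Ccl4* UMIs (950 CPM, 746 to 1193), 39 of them in 1 cell. In steady-state T cells all 8 *Ccl4* UMIs were in 1 of 36 cells, and in 3 NK cells *Ccl4* stood at 456 CPM.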
